A study of Mus musculus with 10 samples.

Results

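Interferon-stimulated genes are the genes that cells switch on after interferon binds its receptor. A list of 47 of them was followed in ARG1+ and ARG1− myeloid cells from the inflamed spinal cord. The members were found by gene symbol: each of the 47 had 1 row among the 55487 genes of the count table, and each passed the filter on low counts that left 13740 genes for testing. They were described as a class of 39 type I antiviral genes and a class of 8 interferon-gamma GTPases. Together they took between 0.317% and 0.749% of the counts of a library.

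To compare cells that express arginase 1 with neighbours that do not, the study sorted spinal cord cells of 5 male *Arg1*-eYFP mice (labelled as genotype Arg1tm1Lky and background C57BL/6, 8 to 12 weeks old), in which a yellow fluorescent protein reports *Arg1*. All 5 animals had experimental autoimmune encephalomyelitis (EAE), a model of multiple sclerosis raised by immunization, and were taken at peak disease. From each animal, numbered m2, m6, m234, m235 and m236, came 1 library of 200000 ARG1+ (YFP+) cells and 1 of 100000 ARG1− (YFP−) cells, all viable, CD45+ and CX3CR1+ and without CD3 or Ly6G, so that each group has 5 libraries and each pair shares an animal. Both groups carry the reporter allele and the disease, no healthy animal was included, and the gate holds monocyte-derived cells, microglia and central nervous system-associated macrophages together. In such bulk libraries, fewer cells of a type and less RNA per cell cannot be told apart.

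Type I interferons (interferon alpha and beta) act through the IFNAR receptor, JAK1 and TYK2, which activate transcription factors, among them STAT2 and IRF9, in a complex that binds the interferon-stimulated response element (ISRE) of antiviral genes. Interferon gamma, made mainly by T cells and natural killer cells, signals from its own receptor, through the kinases JAK1 and JAK2, to gamma-activated sites (GAS) in its target genes, and it is the strongest known inducer of the immunity-related GTPases and the guanylate-binding proteins, which attack the vacuoles of intracellular parasites and bacteria. The programmes overlap, since most genes of either class respond in some degree to both interferons.

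The promoters show these elements. RefSeq windows on GRCm38.p6, from 250 bases before to 50 after a gene's start, were found for 28 of the 39 type I members (34 windows, as some genes have several starts) and for all 8 GTPases (9 windows). They were searched on both strands for the ISRE core (GAAA, any 2 bases, GAAA) and for the GAS (TTC, any 3 bases, GAA), which reads the same on both strands. The ISRE core was in 16 of 34 type I windows (47.1%) and 7 of 9 GTPase windows (77.8%), against 3.44% of all 32851 windows. The GAS was in 6 type I windows (17.6%) and 4 GTPase windows (44.4%), against 8.3% of all windows. The motifs overlapped in 24 windows in all, among them that of *Bst2*. No window was found for *Dhx58*, *Zbp1*, *Ifi204*, *Oas2*, *Usp18*, *Parp9*, *Parp14*, *Mx1*, *Mx2*, *Rtp4* and *Ifi27l2a*. A match is a description of the letters and not evidence of binding. The stretches below lie upstream of the RefSeq start and read 5′ to 3′ along the gene. That start can differ from the gene model of the count table, whose coordinates are the ones printed for genes: the stretches of *Irgm1* and *Irgm2* lie wholly inside those models, and 37 of the 60 bases shown for *Gbp2* do. In the first 6, shown because results below turn on them (with *Ifit3b*, the near-copy of *Ifit3*) or because they stand for a GTPase family, the capitals mark the ISRE core:
Isg15 (chr4:156200850-156200909, reverse strand): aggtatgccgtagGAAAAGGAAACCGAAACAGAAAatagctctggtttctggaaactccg
Ifit3 (chr19:34583382-34583441, forward strand): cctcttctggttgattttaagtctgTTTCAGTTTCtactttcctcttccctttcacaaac
Ifit3b (chr19:34607778-34607837, forward strand): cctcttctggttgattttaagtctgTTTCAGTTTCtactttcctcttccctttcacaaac
Rsad2 (chr12:26456538-26456597, reverse strand): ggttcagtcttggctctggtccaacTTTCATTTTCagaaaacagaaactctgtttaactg
Irgm1 (chr11:48871421-48871469, reverse strand): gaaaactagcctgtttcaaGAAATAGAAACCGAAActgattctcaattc
Gbp2 (chr3:142620579-142620638, forward strand): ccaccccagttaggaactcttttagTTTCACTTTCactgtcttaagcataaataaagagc
The next 3 are GTPase stretches in which the capitals mark the GAS:
Igtp (chr11:58199486-58199544, forward strand): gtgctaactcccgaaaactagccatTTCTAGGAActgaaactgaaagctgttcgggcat
Irgm2 (chr11:58214877-58214935, forward strand): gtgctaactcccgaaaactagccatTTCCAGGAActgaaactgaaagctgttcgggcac
Gbp7 (chr3:142530224-142530282, forward strand): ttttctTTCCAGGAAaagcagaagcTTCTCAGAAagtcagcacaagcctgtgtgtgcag
The stretches of *Ifit3* and *Ifit3b* are the same letter for letter. Those of *Igtp* and *Irgm2* carry an ISRE core in lower case (gaaactgaaa) just after the GAS, so that in *Igtp* the GAS ended 36 and the ISRE core 24 bases before the start, and in *Irgm2* 66 and 54 bases before it.

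Many members are neighbours on the genome. The 5 *Ifit* genes lie side by side on chromosome 19, the 4 *Gbp* genes on chromosome 3, *Oasl1* and *Oasl2* 11005 bases apart on chromosome 5, and *Rsad2* and *Cmpk2*, on opposite strands, 12751 bases apart on chromosome 12. Some share sequence, which limits how far reads of 50 bases can be told apart: 51.2% of the 50-base stretches of *Ifit3* also occur in *Ifit3b*, 57.6% of those of *Oas1a* in its neighbour *Oas1g*, and 14.8% of those of *Ifi204* in *Ifi211*. The gene model of *Irgm2* begins inside *Igtp* on the same strand, where 8.01% of the exon bases of *Igtp* lie under it, and *Parp9* and *Dtx3l* overlap at their starts on opposite strands. Levels of these genes are uncertain to that extent.

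Libraries held 8396863 to 35455643 counts, the lowest being ARG1− of m234 (8.40 counts for each CPM, the count scaled to a common library size) and the next lowest 28212174. *Arg1* was at 813 ± 174 CPM over ARG1+ libraries against 18.4 ± 4.95 CPM over ARG1− libraries (mean ± SD, n = 5 libraries each), a log2 fold change of 5.45 (SE 0.21, FDR 1.07e-07), and no library went against its label. All 7 markers of the sorted myeloid cells passed the filter, with a summed level of 11090 to 17950 CPM, and none of 6 T cell markers did, with a sum of at most 1.86 CPM.

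All 47 members had a lower fitted level in ARG1+ than in ARG1− cells, as did 50.4% of all tested genes. Fold changes are ARG1+ over ARG1− on the log2 scale, so that negative values are lower in ARG1+ cells. By edgeR's quasi-likelihood test, which did not use the pairing, 16 of the 47 were lower at a false discovery rate (FDR, the Benjamini-Hochberg adjusted p over all 13740 genes) below 0.05 and 0 were higher, against 6.15% of all tested genes lower and 6.82% higher. With total counts in place of TMM library sizes this split was 9.32% lower and 5.13% higher, and 21 members were lower and 0 higher. At an unadjusted p below 0.05 there were 30 lower and 0 higher members (15% of all genes in each direction), and with DESeq2 24 members were lower and 0 higher (9.51% and 9.29% of all genes). With the animal as a replicate block, so that each ARG1+ library is set against the ARG1− library of its own animal, 45 of the 47 were lower and 0 higher, against 18.3% of all genes lower and 16.8% higher. The differences were mostly modest in size: only *Ifit1bl1*, *Oasl1* and *Isg20* also had a log2 fold change below -1 (0.888% of all genes passed both limits), joined by *Ifit3* with the block (1.55% of all genes).

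The classes are given apart. Of the 39 type I members, 11 were lower without the block and 37 with it, and their median log2 fold change was -0.44, where the median of all tested genes was -0.0022. Of the 8 GTPases, 5 were lower without the block and 8 with it, and their median was -0.53. The fold changes of the type I members ran from -1.33 to -0.017 and those of the GTPases from -0.66 to -0.19. The plot of fold changes sets the fits side by side, and the interval was narrower with the animal in the fit for each of the 47.

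**Figure D1:**
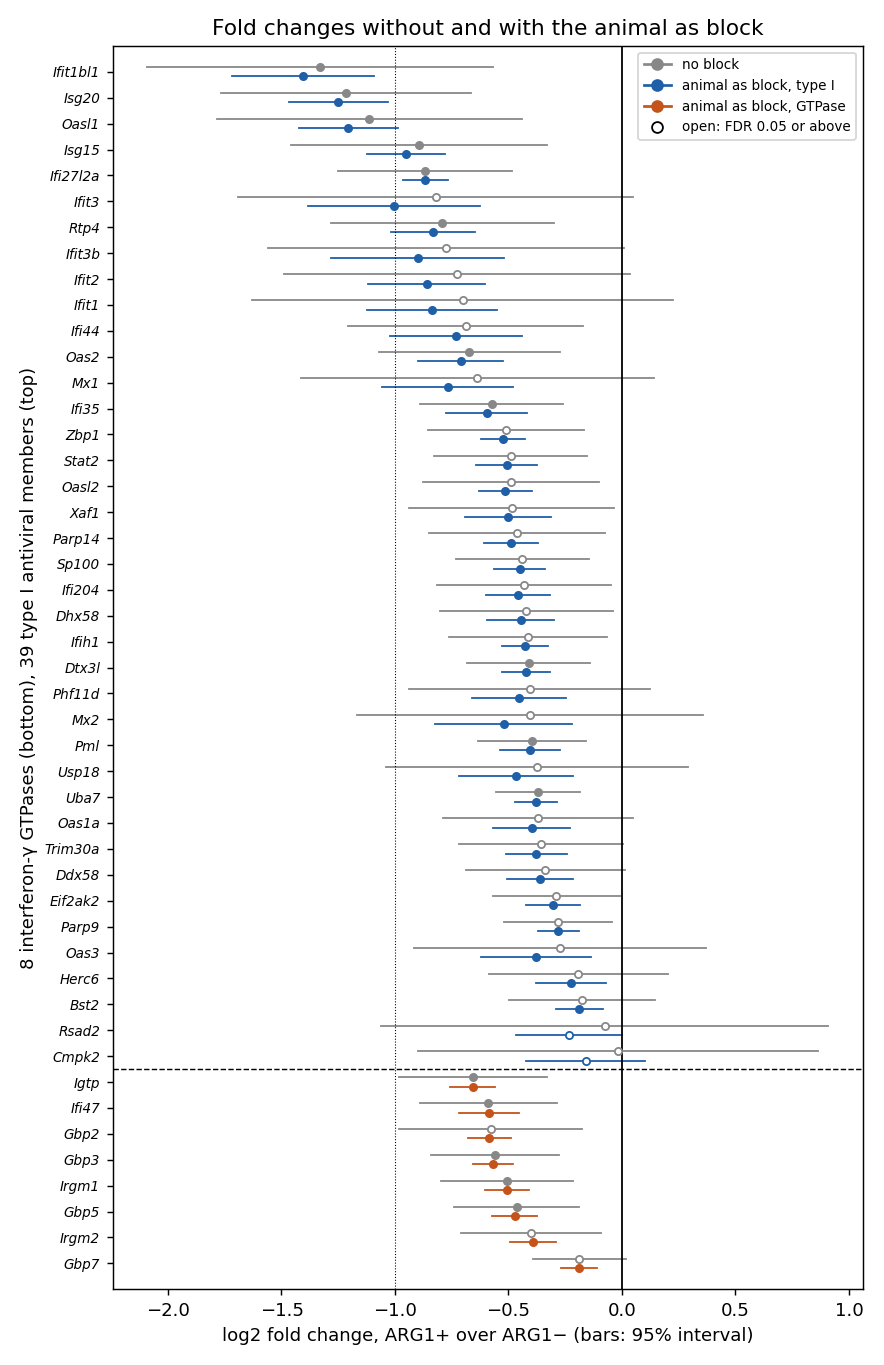
Log2 fold change of each member (x axis, ARG1+ over ARG1−) with its 95% interval, from edgeR without the block (grey) and with the animal as block (blue, type I; orange, GTPase); filled points have an FDR below 0.05 and the dotted line marks -1. All 47 points without the block lie below 0, and with it all points but those of *Rsad2* and *Cmpk2* are filled.

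Inside each animal the direction was nearly uniform. In m2, m6, m234 and m236, all 47 members were lower in the ARG1+ library than in the ARG1− library of the same animal, where 50.3%, 49.5%, 51.1% and 50.1% of all tested genes were. In m235, 41 of the 47 were lower (50% of all genes), and the other 6, all type I, were higher: *Rsad2*, *Cmpk2*, *Oas3*, *Usp18*, *Herc6* and *Mx2*. Lower in all 5 animals were therefore 33 of 39 type I members and 8 of 8 GTPases, against 21% of all genes lower and 20% higher in all 5. The median difference of the type I members was -0.68 in m2, -0.53 in m6, -0.61 in m234, -0.21 in m235 and -0.50 in m236 (log2 CPM), and m235 had the smallest drop of the 5 animals for 36 of the 39. The GTPases had medians of -0.50, -0.59, -0.32, -0.52 and -0.57 in the same order, and m235 had the smallest drop for 2 of 8. How often m235 had the smallest drop over all genes was not counted.

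**Figure D2:**
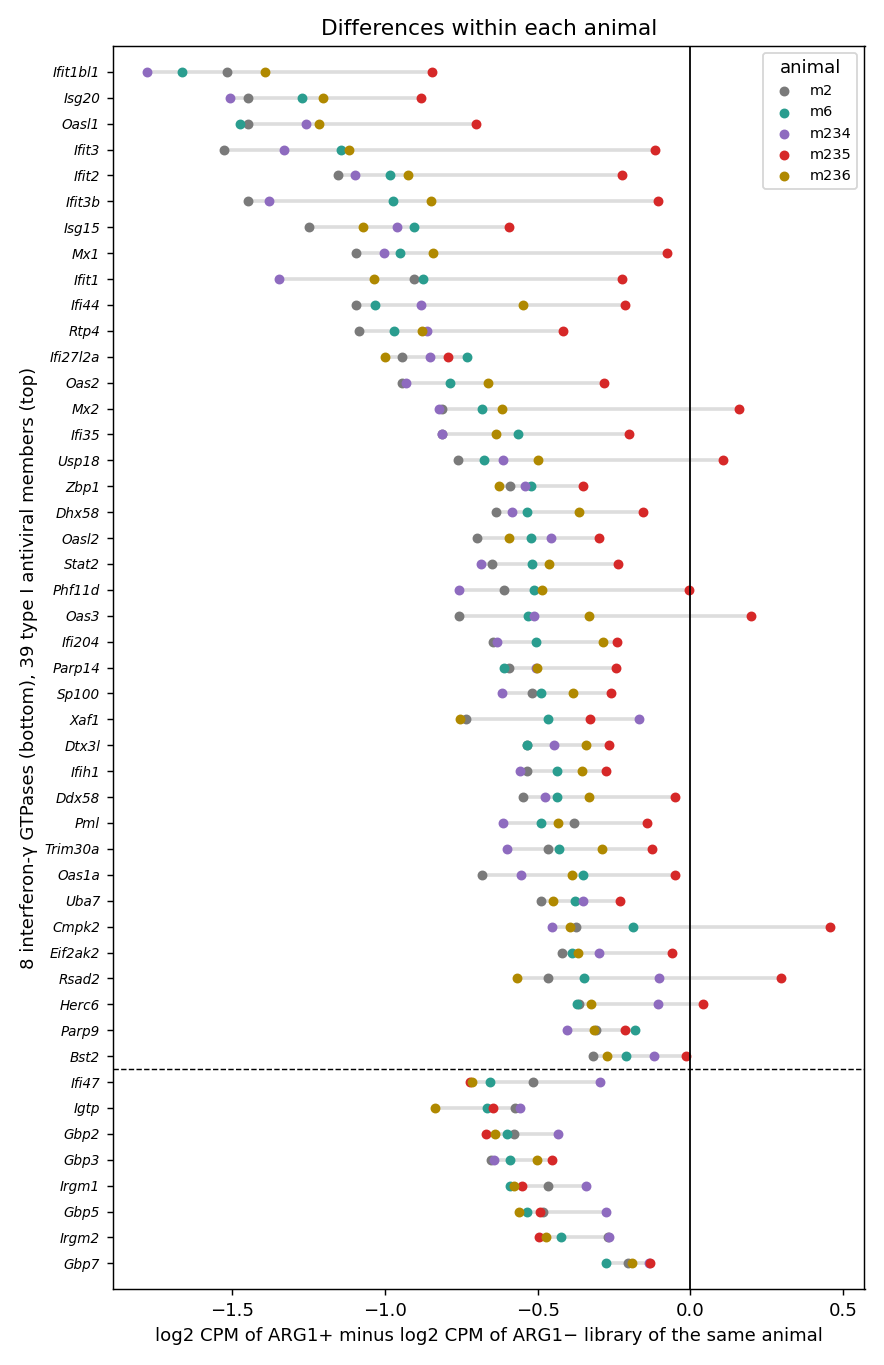
Difference in log2 CPM between the ARG1+ and the ARG1− library of the same animal (x axis) for each member (rows), 1 point per animal in its colour, with a grey bar from the lowest to the highest. Points of m235 lie at the right end for most type I members and past 0 for 6 of them, while all points of the 8 GTPases lie below 0.

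One animal stood apart for the type I members. Both libraries of m235 were the highest of their group for 37 of the 39 type I members and for 6 of the 8 GTPases, where the same held for 12.8% of all tested genes. The type I members of m235 lay a median 1.78-fold above the mean of the other 4 animals in ARG1+ cells and 1.40-fold in ARG1− cells, and the GTPases 1.25-fold and 1.28-fold. Ranking all tested genes by how far the ARG1+ library of m235 lay above the other 4, the first 10 genes (0.0728% of those tested) held 7 members (*Rsad2*, *Ifit3*, *Ifit1*, *Cmpk2*, *Ifit3b*, *Ifit2* and *Mx1*, 3.23-fold to 4.05-fold) and the first 100 (0.728%) held 19, all type I. In the same ranking of the ARG1− libraries the first 10 held 0 members and the first 100 held 3. Outside the list both libraries of m235 were also the highest for 50 of 66 other interferon-stimulated genes. At the low end, m2 was the lowest of both groups for all 8 GTPases, while m6 was the lowest for 19 and m2 for 10 of the 39 type I members. Among all 13740 tested genes, m2 was the lowest of both groups for 810 and m6 for 584.

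**Figure D3:**
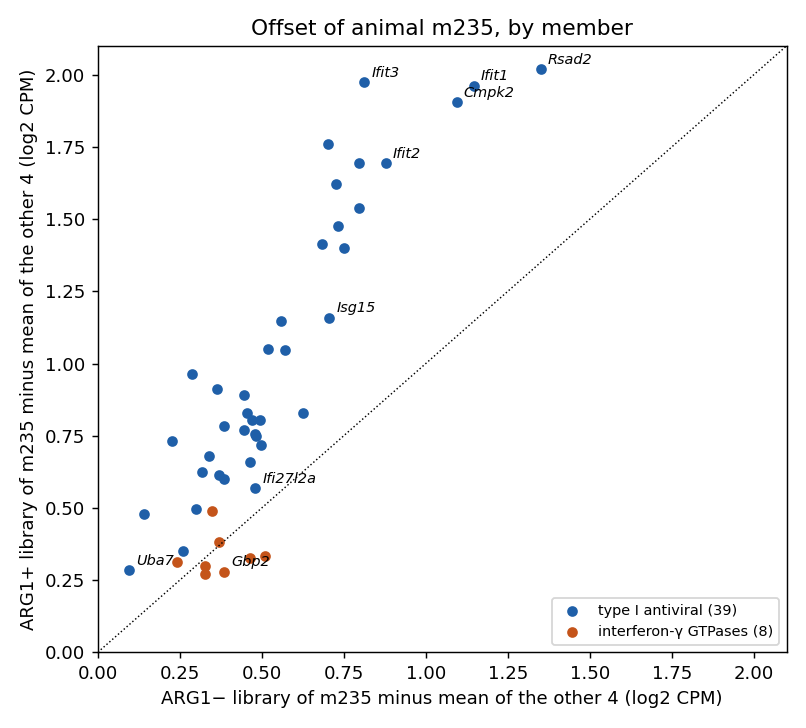
Offset of m235 from the mean of the other 4 animals, in log2 CPM, in ARG1− (x axis) and ARG1+ libraries (y axis), 1 point per member, with a dotted line where both are equal. Most type I members lie above the line, up to 2.02 for *Rsad2*, and the 8 GTPases lie near it.

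The heat map of the members puts these patterns side by side, and the members are described below by role, with their levels in CPM given for m2, m6, m234, m235 and m236 in that order.

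**Figure D4:**
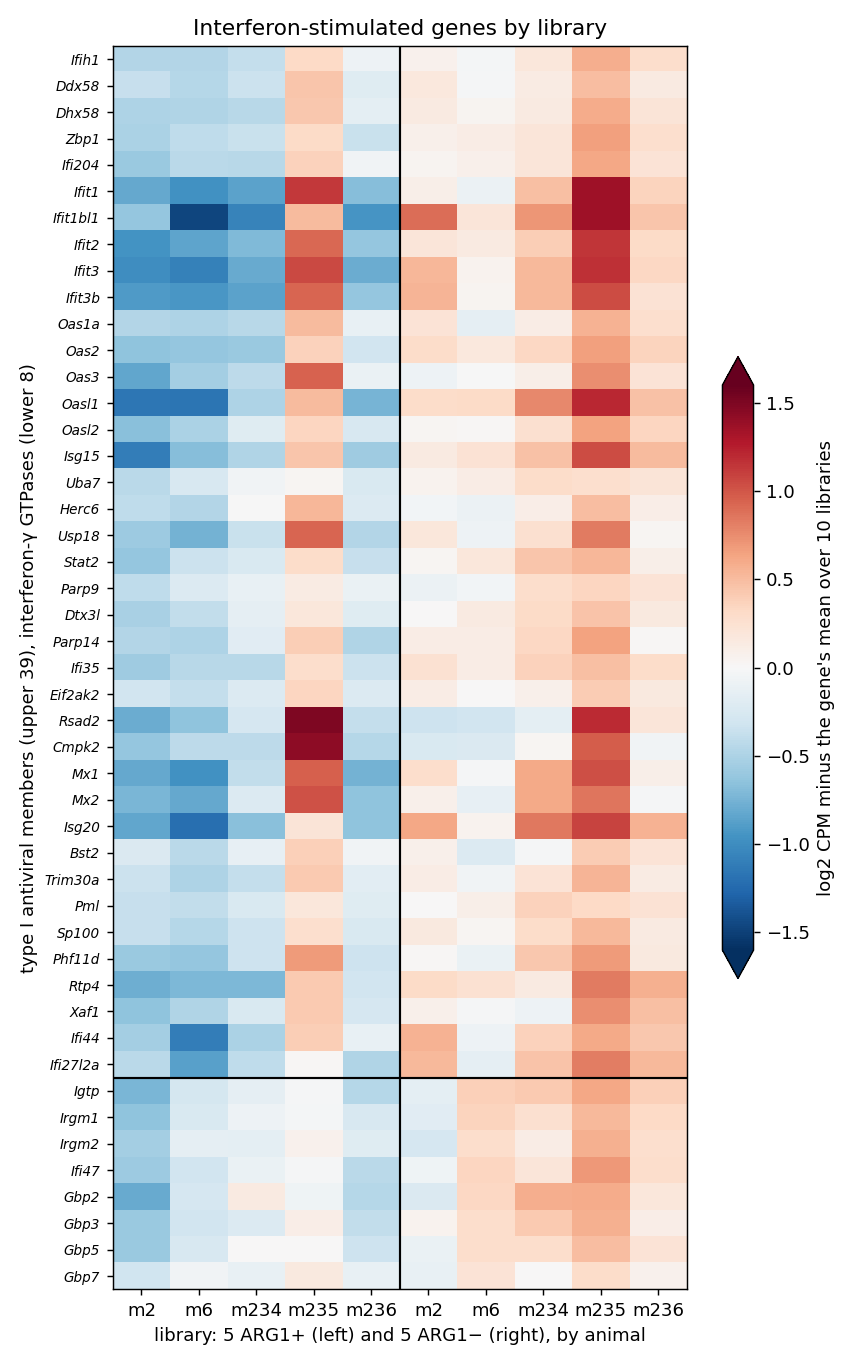
Log2 CPM of each member (rows; 39 type I above the line, 8 GTPases below) minus its mean over the 10 libraries, in the 5 ARG1+ (left) and 5 ARG1− libraries (right). The ARG1+ columns of m2, m6, m234 and m236 are mostly blue and both m235 columns are mostly red among the type I members, whereas among the GTPases the ARG1+ side as a whole is paler or bluer than the ARG1− side and m2 is the lowest in each.

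The sensors detect foreign nucleic acid: *Ifih1* (MDA5), *Ddx58* (RIG-I) and *Dhx58* (LGP2) bind viral RNA, *Zbp1* binds Z-form nucleic acid and can trigger cell death, and *Ifi204* is an intracellular DNA sensor. None of the 5 was called without the block, and all 5 were lower with it and lower in every animal. *Ifi204*, which had the most counts of them, was at 169.6, 192, 189, 333 and 246 CPM in ARG1+ cells and at 265, 272, 293, 394 and 299.9 CPM in ARG1− cells. The groups overlapped, with m235 highest in both, and the log2 fold change was -0.43 (SE 0.17, FDR 0.121), or -0.46 (SE 0.063, FDR 0.000427) with the block. *Zbp1* (ENSMUSG00000027514, chr2:173206612-173218923, reverse strand) had the most negative fold change of the 5, from 158, 162, 170.2, 236.4 and 179.7 CPM in ARG1− cells to 105, 113, 117, 185 and 116 CPM in ARG1+ cells, at -0.51 (SE 0.16, FDR 0.0532) without and -0.53 (SE 0.044, FDR 2.02e-05) with the block. Here 4 ARG1+ libraries lay below all ARG1− libraries, and m235 above 4 of them. *Ddx58* had the smallest, with 41.8, 39.6, 42.6, 73.8 and 47.5 CPM across the ARG1+ and 61.2, 53.5, 59.3, 76.3 and 59.7 CPM across the ARG1− libraries. Its ARG1+ and ARG1− libraries of m235 were nearly equal, and its log2 fold change was -0.34 (SE 0.16, FDR 0.181), or -0.36 (SE 0.066, FDR 0.00234) with the block. *Ifih1* and *Dhx58* lay between, at -0.41 (FDR 0.105) and -0.42 (FDR 0.13); with the block both were lower (FDR 9.97e-05 and FDR 0.000673).

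The IFIT proteins bind viral RNA that lacks the host's cap marks and block its translation. This family had the lowest median log2 fold change of the type I subgroups (-0.78), but 1 of 5 was called without the block and 5 of 5 with it. *Ifit2* (ENSMUSG00000045932, chr19:34550694-34576419, forward strand), which had the most counts of the family, was at 41.4, 44.9, 49.4, 152 and 52.5 CPM in ARG1+ cells. In ARG1− cells it was at 92.2, 88.7, 106, 177 and 99.6 CPM. The difference was -0.92 to -1.15 in 4 animals and -0.22 in m235, which was apart from the rest in both groups. The log2 fold change was -0.73 (SE 0.35, FDR 0.184), and -0.86 (SE 0.12, FDR 0.000379) with the block. *Ifit1* had the smallest change, from 27.7, 24.3, 36.4, 66.6 and 33.3 CPM in ARG1− cells to 14.7, 13.2, 14.3, 57.02 and 16.2 CPM in ARG1+ cells, with -0.70 (SE 0.43, FDR 0.292) without and -0.84 (SE 0.13, FDR 0.000832) with the block. *Ifit1bl1* (ENSMUSG00000079339, chr19:34592891-34601956, reverse strand), a low gene, stood at 3.36, 1.84, 2.45, 7.47 and 2.67 CPM across the ARG1+ libraries and at 9.76, 5.99, 8.58, 13.5 and 7.13 CPM across the ARG1− libraries. It had the largest fold of all members, 2.52-fold higher in ARG1− cells, and passed both limits at -1.33 (SE 0.35, FDR 0.0284), although it was called in 5 of the 15 fits that each left out a library or an animal. The near-copies *Ifit3* and *Ifit3b* moved together, at -0.82 (FDR 0.19) and -0.78 (FDR 0.171) without and -1.01 (SE 0.17, FDR 0.00147) and -0.90 (SE 0.17, FDR 0.00295) with the block. Over the family, m235 lay a median 3.39-fold above the other animals in ARG1+ and 1.76-fold in ARG1− cells, and its median difference was -0.22 against -0.98 to -1.45 elsewhere.

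The OAS enzymes make oligoadenylate from ATP on double-stranded RNA, which activates RNase L, and the OASL proteins are relatives that tune sensing. Of 5 members, 2 were lower without and 5 with the block. *Oasl1* (ENSMUSG00000041827, chr5:114923240-114937915, forward strand), known to hold down translation of *Irf7*, stood at 24.4, 24.1, 38.9, 77.6 and 32.6 CPM across the ARG1+ libraries and at 66.7, 67.2, 93.04, 126 and 75.8 CPM across the ARG1− libraries. Each animal was lower in its ARG1+ library, with the smallest difference, -0.70, in m235, and only the ARG1+ library of m235 reached into the ARG1− range. The log2 fold change was -1.11 (SE 0.31, FDR 0.0351), or -1.21 (SE 0.10, FDR 1.85e-05) with the block. *Oasl2*, with the most counts and the highest level per length of the family, stood at 125, 139.8, 174, 252 and 167 CPM across the ARG1+ libraries and at 202, 201, 238, 310.4 and 252 CPM across the ARG1− libraries. It was lower in every animal, at -0.49 (SE 0.18, FDR 0.0902) without and -0.51 (SE 0.053, FDR 7.86e-05) with the block. *Oas3* had the smallest change, with 66.7, 81.8, 88.8, 228 and 110.1 CPM across the ARG1+ and 113, 118, 127, 198 and 139 CPM across the ARG1− libraries. It was lower in 4 animals and higher in m235, and had a log2 fold change of -0.27 (SE 0.30, FDR 0.573), or -0.38 (SE 0.11, FDR 0.0225) with the block. *Oas2* was lower in both fits, at -0.67 (FDR 0.0322) without the block. *Oas1a*, whose reads may be shared with *Oas1g*, was at -0.37 (FDR 0.219) without and lower with the block (FDR 0.00304), and *Oas1g* itself at -0.32 (FDR 0.276).

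ISG15 is a ubiquitin-like protein, joined to targets by the activating enzyme UBA7 and the ligase HERC6 and removed by the protease USP18, which also restrains signalling from the type I receptor. *Isg15* (ENSMUSG00000035692, chr4:156199455-156200796, reverse strand) was at 46.1, 61.98, 70.8, 136 and 67.1 CPM in ARG1+ cells and at 109.7, 116, 138, 204 and 141 CPM in ARG1− cells. All 5 animals were lower in ARG1+ cells, and the ARG1+ library of m235 was the only one above any ARG1− library. *Isg15* was 1.86-fold higher in ARG1− cells, with a log2 fold change of -0.89 (SE 0.26, FDR 0.042), or -0.95 (SE 0.077, FDR 1.75e-05) with the block. Its call without the block held in 2 of 15 fits that left out a library or an animal, the 2 without the ARG1+ library or both libraries of m235. *Uba7* (ENSMUSG00000032596, chr9:107975505-107984060, forward strand) stood at 72.5, 81.6, 93.98, 100 and 82.1 CPM across the ARG1+ libraries and at 102, 106, 119.8, 117 and 112 CPM across the ARG1− libraries. It was the 1 member of the 47 for which the groups did not overlap (5.2% of all genes; exact permutation test, 2-sided, p = 0.00794, the smallest that 5 against 5 libraries allow), at -0.37 (SE 0.085, FDR 0.0156). The permutation test did not use the pairing, and any gene whose groups do not overlap gets this p. *Herc6* had the smallest change, with 18.7, 18.01, 24.8, 35.95 and 21.4 CPM across the ARG1+ and 24.1, 23.3, 26.7, 34.9 and 26.9 CPM across the ARG1− libraries. It was higher in ARG1+ cells of m235 by 0.042 and lower in the other 4, at -0.19 (SE 0.18, FDR 0.513) without and -0.22 (SE 0.07, FDR 0.0302) with the block. *Usp18* was likewise higher in m235 and lower in the other 4 animals, at -0.37 (FDR 0.441) without and -0.47 (SE 0.11, FDR 0.00998) with the block.

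*Stat2* is a subunit of the type I transcription complex, *Parp9* and *Dtx3l* encode a pair of partner proteins, an inactive ADP-ribosyltransferase and a ubiquitin ligase, *Parp14* is a further ADP-ribosyltransferase, and *Ifi35* encodes a leucine zipper protein. Of these 5, 2 were lower without and 5 with the block, and each was lower in every animal. *Ifi35* (ENSMUSG00000010358, chr11:101448407-101458698, forward strand) fell most, from 62.5, 57.6, 68.1, 73.9 and 64.9 CPM in ARG1− cells to 35.5, 38.96, 38.7, 64.2 and 41.8 CPM in ARG1+ cells. The ARG1+ library of m235 was the only one above any ARG1− library, and the log2 fold change was -0.57 (SE 0.14, FDR 0.0232). *Parp14*, with the most counts, stood at 166, 163, 203, 303 and 164 CPM across the ARG1+ libraries and at 250.4, 249, 288, 358 and 233 CPM across the ARG1− libraries. It was at -0.46 (SE 0.18, FDR 0.105) without and -0.49 (SE 0.053, FDR 9.88e-05) with the block. *Parp9* had the smallest change, with 56.3, 63.8, 68.3, 81.9 and 69.4 CPM across the ARG1+ and 69.8, 72.3, 90.3, 94.9 and 86.5 CPM across the ARG1− libraries, and was at -0.28 (SE 0.11, FDR 0.106) without and -0.28 (SE 0.04, FDR 0.000581) with the block. Its partner *Dtx3l*, with which it shares a start region, was lower in both fits, at -0.41 (FDR 0.0486) without the block, and *Stat2* at -0.49 (FDR 0.0571) without and -0.51 (SE 0.06, FDR 0.000169) with it.

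The 15 other effectors include the lipid and nucleotide enzymes *Rsad2* (viperin) and *Cmpk2*, the dynamin-like *Mx1* and *Mx2*, the exonuclease *Isg20*, the tether *Bst2*, the RNA-dependent kinase *Eif2ak2* (PKR) and the nuclear body genes *Pml* and *Sp100*. Without the block 4 were lower and with it 13. *Isg20* (ENSMUSG00000039236, chr7:78913424-78920396, forward strand) stood at 5.48, 4.20, 6.16, 11.3 and 6.26 CPM across the ARG1+ libraries and at 15.1, 10.2, 17.6, 20.96 and 14.5 CPM across the ARG1− libraries. Its differences within animals ran from -1.51 to -0.88, and it passed both limits at -1.22 (SE 0.25, FDR 0.00962) and was called in 14 of 15 fits that left out a library or an animal. *Ifi27l2a*, *Rtp4* and *Pml* were also lower in both fits, at -0.87 (FDR 0.0086), -0.79 (FDR 0.0386) and -0.40 (FDR 0.0337) without the block. *Ifi27l2a* was lower in every animal, with differences of -0.94, -0.73, -0.85, -0.79 and -1, among which m235 did not stand apart.

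*Rsad2* (ENSMUSG00000020641, chr12:26442746-26456452, reverse strand) and its neighbour *Cmpk2* (ENSMUSG00000020638, chr12:26469204-26479837, forward strand) were the exceptions. *Rsad2* stood at 94.99, 106, 138, 467 and 127 CPM across the ARG1+ libraries and at 131, 134, 148, 379.6 and 189 CPM across the ARG1− libraries. The pair of libraries of m235 stood above all others, and within animals the differences were -0.46, -0.35, -0.10, 0.30 and -0.57. *Cmpk2* stood at 25.98, 29.9, 29.9, 108 and 29.1 CPM across the ARG1+ libraries and at 33.7, 34, 40.9, 78.2 and 38.2 CPM across the ARG1− libraries. Again m235 was the highest in both groups and the only animal with more in ARG1+ cells, with differences of -0.37, -0.19, -0.45, 0.46 and -0.39. Neither was called: *Rsad2* was at -0.075 (SE 0.45, FDR 0.934) without and -0.23 (SE 0.10, FDR 0.111) with the block, and *Cmpk2* at -0.017 (SE 0.40, FDR 0.984) and -0.16 (SE 0.12, FDR 0.325). In a blocked fit without m235, an alternative chosen after seeing the data, *Rsad2* was at -0.37 (FDR 0.00625) and *Cmpk2* at -0.34 (FDR 0.00359), and all 47 members were lower (13.3% of all genes). With each other animal left out in turn, 40 (m2), 42 (m6), 45 (m234) and 43 (m236) members were lower in the blocked fit, against 11.8%, 13.5%, 20.8% and 15.5% of all genes. The other effectors *Mx1*, *Mx2*, *Phf11d*, *Xaf1*, *Ifi44*, *Sp100*, *Trim30a*, *Eif2ak2* and *Bst2* had log2 fold changes of -0.64, -0.41, -0.41, -0.49, -0.69, -0.44, -0.36, -0.29 and -0.18. None of these 9 was called without the block and all were with it, *Mx2* and *Bst2* with the least margin (FDR 0.014 and FDR 0.0119).

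**Figure D5:**
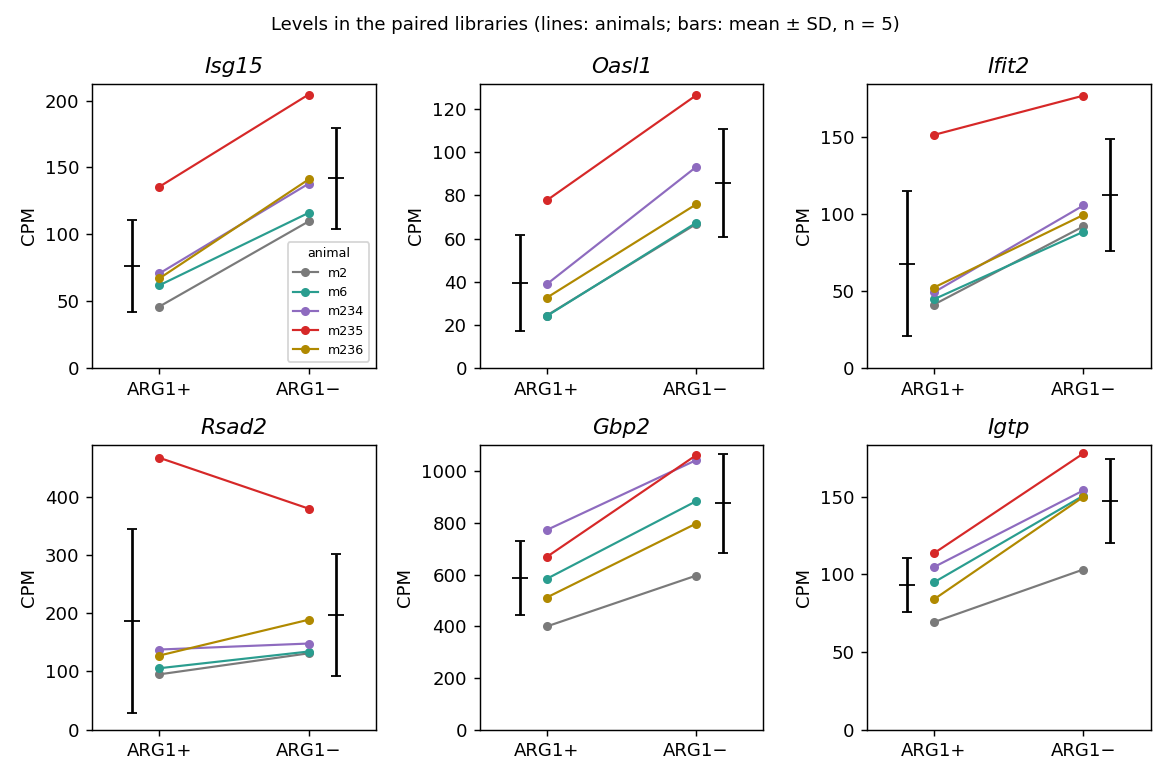
CPM of 6 members (y axis, linear from 0) in the paired ARG1+ and ARG1− libraries, with a line per animal and the mean ± SD of 5 libraries beside each group. *Isg15*, *Oasl1*, *Gbp2* and *Igtp* rise from ARG1+ to ARG1− in all 5 animals, *Ifit2* too but least in m235, and *Rsad2* rises in 4 and falls in m235.

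The 8 GTPases were lower in every animal, with differences from -0.84 to -0.13 where those of the type I members ran from -1.78 to 0.46. The immunity-related GTPases *Igtp* (IRGM3), *Irgm1*, *Irgm2* and *Ifi47* (IRG-47) load onto or guard membranes around intracellular pathogens. *Igtp* (ENSMUSG00000078853, chr11:58199556-58207591, forward strand) stood at 69.3, 94.9, 105, 114 and 83.9 CPM across the ARG1+ libraries and at 103, 151, 154, 178 and 149.8 CPM across the ARG1− libraries. The groups overlapped only through the low ARG1− library of m2, and the log2 fold change was -0.66 (SE 0.15, FDR 0.0156), or -0.66 (SE 0.044, FDR 6.16e-06) with the block. *Irgm1* stood at 121, 160.4, 179, 185 and 158 CPM across the ARG1+ libraries and at 167, 242, 227, 271 and 236.1 CPM across the ARG1− libraries, or -0.51 (SE 0.13, FDR 0.0281) on the log2 scale. *Ifi47* stood at 103, 124, 144, 152 and 114 CPM across the ARG1+ libraries and at 147, 196, 177, 251 and 188 CPM across the ARG1− libraries, at -0.59 (SE 0.14, FDR 0.0179). In both, the ARG1− library of m2 was again the only one below any ARG1+ library. *Irgm2* stood at 42.1, 55.6, 55.2, 64.2 and 53.4 CPM across the ARG1+ libraries and at 50.8, 74.6, 66.4, 90.6 and 74.1 CPM across the ARG1− libraries, and was called with the block only, at -0.40 (SE 0.14, FDR 0.0828) without and -0.39 (SE 0.045, FDR 0.000156) with it.

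The guanylate-binding proteins coat pathogen vacuoles and bacteria and open them to the inflammasome. *Gbp2* (ENSMUSG00000028270, chr3:142620602-142638008, forward strand) had the highest level per length of all members, 233 CPM per kilobase of exon in ARG1+ and 348 in ARG1− cells. It stood at 399, 583, 772, 668 and 511 CPM across the ARG1+ libraries and at 596, 883, 1042, 1061 and 797 CPM across the ARG1− libraries. Levels ranged widely between animals, highest in m234 or m235 and lowest in m2, while the difference within animals stayed between -0.67 and -0.43. It missed the threshold without the block, at -0.58 (SE 0.19, FDR 0.0608), and passed it with the block, at -0.58 (SE 0.043, FDR 9.52e-06). *Gbp3* stood at 89.3, 109, 116, 146 and 103 CPM across the ARG1+ libraries and at 140.3, 164, 181, 199.8 and 146 CPM across the ARG1− libraries, at -0.56 (SE 0.13, FDR 0.0167). *Gbp5* stood at 80.98, 102, 123, 122 and 96.6 CPM across the ARG1+ libraries and at 113, 148, 148, 172 and 142 CPM across the ARG1− libraries, at -0.46 (SE 0.13, FDR 0.0327). Both were lower in all 5 animals, with the smallest difference of *Gbp5*, -0.27, in m234. *Gbp7* had the smallest change of the class, with 104, 125, 119.6, 145 and 120.1 CPM across the ARG1+ and 120.0, 151, 131, 159 and 137 CPM across the ARG1− libraries, and was called with the block only, at -0.19 (SE 0.094, FDR 0.204) without and -0.19 (SE 0.035, FDR 0.00267) with it. Part of its exons, 11.3%, lie under the gene model *Gm43802* on the same strand.

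Per length, the order of levels was led in ARG1+ cells by *Gbp2* (233 CPM per kilobase), *Bst2* (196), *Ifi27l2a* (113), *Isg15* (101) and *Ifi204* (98.4). In ARG1− cells the same 5 led, at 348, 221, 206, 188 and 133 CPM per kilobase. The lowest in both groups were *Ifit1bl1* (1.58 and 3.98) and *Ifi44* (2.39 and 3.86). The GTPases spanned 14.7 to 233 CPM per kilobase in ARG1+ cells.

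The calls without the block depended on which libraries were in the fit. Those of the type I members moved most with m235, and those of the GTPases with m6 and m236. Without the ARG1+ library of m235 the type I members called rose from 11 to 35 of 39, and without both its libraries to 35, while 5.3% and 4.76% of all genes were lower in those fits. Of all genes, 3.51% to 6.38% were lower without another ARG1+ library, 4.11% to 5.73% without an ARG1− library and 2.08% (m6) to 6.7% (m234) without both libraries of another animal, so the counts below also move with the calls over all genes. Leaving out another ARG1+ library gave 3 (m2), 3 (m6), 4 (m234) or 3 (m236), and leaving out an ARG1− library gave 6 (m2), 8 (m6), 7 (m234), 4 (m235) or 5 (m236). Of the 8 GTPases, 3 were called when 1 of 6 libraries was left out (ARG1+ of m2, of m6 and of m236, ARG1− of m6, of m235 and of m236), and 7 without ARG1− of m2. Without both libraries of 1 animal, 1 (m2), 2 (m6), 3 (m234) or 2 (m236) type I members and 7 (m2), 0 (m6), 5 (m234), 3 (m235) or 0 (m236) GTPases were called. Among the 16 members called, *Isg20* and *Ifi27l2a* were called in 14 and *Uba7*, *Igtp*, *Ifi47* and *Gbp3* in 13 of the 15 such fits, *Ifi35* in 8, *Irgm1* in 6, *Ifit1bl1* and *Gbp5* in 5, *Oas2*, *Oasl1* and *Pml* in 4, *Rtp4* in 3 and *Isg15* and *Dtx3l* in 2. With the block, leaving out an animal kept all 8 GTPases and 32 to 39 type I members called.

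Interferons themselves were nearly absent from the counts. None of 21 listed interferon genes passed the filter, and 15 had 0 counts in every library. A count of 0 does not exclude a low level. *Ifnb1*, the gene of interferon beta, had 35 counts in the 5 ARG1+ and 49 in the 5 ARG1− libraries in total, and *Ifng* 15 and 8. In m235, where the type I members were highest, *Ifnb1* had 4 counts in the ARG1+ and 2 in the ARG1− library, the lowest or joint lowest of each group. *Ifnab* went the other way, with 5 counts in the ARG1+ library of m235. It had 1 in ARG1+ of m234, 2 in ARG1− of m236 and 0 in every other library. Counts this low do not allow animals to be compared.

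Genes upstream of the members were tested in the same fits. The counts in this and the next 2 paragraphs stand beside the calls over all tested genes. Without the block 6.15% of these were lower and 6.82% higher, and with it 18.3% and 16.8%. In a list of 6 genes, 1 or 2 calls cannot be told from these shares. Of 6 receptor genes 1 was lower and 0 higher without the block, and 2 lower and 1 higher with it. The 1 lower in both was *Ifnlr1*, at 0.513 ± 0.261 CPM over ARG1+ libraries against 1.27 ± 0.601 CPM over ARG1− libraries (mean ± SD, n = 5 libraries each) and -1.33 (SE 0.40, FDR 0.0456), a gene near the limit of the filter. *Ifngr1*, with the most counts, was at -0.076 (FDR 0.56), and *Ifnar1* and *Ifnar2* at -0.067 (FDR 0.449) and -0.087 (FDR 0.311). Of 12 kinases and transcription factors 4 were lower and 0 higher without the block, and 9 lower with it. *Jak2*, a kinase of the interferon gamma receptor, was at 164 ± 13.1 CPM over ARG1+ libraries against 256 ± 25.1 CPM over ARG1− libraries (mean ± SD, n = 5 libraries each). Its groups did not overlap (5.2% of all genes had every ARG1+ library below every ARG1− library). Its log2 fold change was -0.64 (SE 0.077, FDR 0.000488). *Irf5*, *Irf9* and *Stat3* were also lower, at -0.42 (FDR 0.000464), -0.29 (FDR 0.038) and -0.19 (FDR 0.043). *Irf7*, which amplifies type I interferon, was at -0.41 (FDR 0.301) without the block and lower with it (FDR 0.00115).

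Of 8 feedback inhibitors 2 were lower and 0 higher, among them the phosphatase gene *Ptpn1*, at 341 ± 7.40 CPM over ARG1+ libraries against 440.3 ± 18.2 CPM over ARG1− libraries (mean ± SD, n = 5 libraries each) and -0.37 (SE 0.049, FDR 0.00101), while *Socs3*, with the most counts, was at -0.03 (FDR 0.749). Of 13 genes of upstream sensing 4 were lower and 2 higher without the block, and 5 lower and 4 higher with it. Without the block, the endosomal DNA receptor *Tlr9* was lower at -0.80 (SE 0.15, FDR 0.00553), and the endosomal RNA receptors *Tlr7* and *Tlr8* were the higher ones, at 0.33 (FDR 0.0375) and 0.49 (FDR 0.0166). *Trim25*, with the most counts, was at -0.012 (FDR 0.956).

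Further target genes lie outside the list. Of 15 further interferon-gamma GTPases 7 were lower and 0 higher without the block and 14 lower with it, among them *Gvin1* at -0.44 (SE 0.11, FDR 0.0202) and *Gm4841* at -1.15 (SE 0.32, FDR 0.0374). Of 18 other interferon-gamma targets 6 were lower and 0 higher, and 14 lower with the block. The chemokine gene *Cxcl11* was past both limits at 1.31 ± 0.314 CPM over ARG1+ libraries against 3.66 ± 1.02 CPM over ARG1− libraries (mean ± SD, n = 5 libraries each) and -1.48 (SE 0.24, FDR 0.00261), whereas *Nos2* (inducible nitric oxide synthase), the gene of this list with the most counts, was at 1472 ± 440.3 CPM over ARG1+ libraries against 1356 ± 419.9 CPM over ARG1− libraries (mean ± SD, n = 5 libraries each) and 0.12 (SE 0.23, FDR 0.774). Of 66 other interferon-stimulated genes 17 were lower and 1 higher, and 52 lower and 3 higher with the block. Past both limits (0.888% of all genes, lower) were *Ifitm6* at -2.35 (SE 0.33, FDR 0.00128), *Ifitm1* at -1.68 (SE 0.31, FDR 0.00562) and *Ms4a4c* at -1.17 (SE 0.24, FDR 0.0101). None of them overlapped between groups (5.2% of all genes). The higher gene was *Ifi27*, at 0.67 (SE 0.074, FDR 0.000349). *Ly6e*, with the most counts, was at -0.20 (FDR 0.282). Over all 138 tested pathway genes outside the members, 41 were lower and 3 higher without the block, against 6.15% and 6.82% of all genes. With the block 98 were lower and 8 higher, against 18.3% and 16.8% of all genes.

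Markers of other cell types also differed between the groups. Of all tested genes, 6.15% were lower and 6.82% higher without the block, and 18.3% and 16.8% with it. Summed markers of conventional dendritic cells were at 13.95 to 30.08 CPM in ARG1+ and 29.67 to 62.15 CPM in ARG1− libraries, lower in all 5 animals, with 5 of 7 tested markers lower (6 with the block). *Clec9a*, which made up most of the ARG1+ sum (13.9 and 11.75 CPM on average), was not called in either fit. It was at 0.28 (FDR 0.547) without the block, higher in ARG1+ cells of 4 animals and lower in 1. Natural killer cell markers summed to 3.26 to 5.58 and 10.8 to 15.0 CPM. Most of this was *Klrk1* (3.07 and 11.2 CPM on average), which was lower, and the others did not pass the filter. Those of B and plasma cells summed to 1.94 to 4.40 and 4.41 to 11.2 CPM (1 of 2 lower, *Jchain*). Those of plasmacytoid dendritic cells, known for making type I interferon, summed to 85.3 to 106 and 99.5 to 210.1 CPM, lower in 4 animals. Of the 4 tested, 0 were called without the block and 3 were lower with it. *Tcf4* (67.7 and 81.0 CPM) and *Runx2* (22.2 and 25.4 CPM) made up most of that sum, and *Siglech* is also in the microglial list. Microglial markers summed to 744 to 1111 and 795 to 2557 CPM (0 of 7 called without the block and 5 lower with it, the sum lower in all 5 animals), and border-associated macrophage markers, higher in ARG1+ cells of all 5 animals, to 49.8 to 133 and 18.7 to 55.6 CPM (2 of 2 tested higher). *Mrc1* made up most of that last sum (60.9 and 26.8 CPM on average), followed by *Pf4* (17.3 and 4.46 CPM). *Cd163*, *Lyve1*, *Folr2* and *Cbr2* did not pass the filter and averaged at most 0.902 CPM in either group. Markers of Ly6C-high monocytes summed to 11860 to 15630 CPM in ARG1+ and 8067 to 12630 CPM in ARG1− cells, higher in all 5 animals, although 4 of the 7 genes were lower (5 lower and 2 higher with the block). None of the markers in these lists was at 0 in all libraries. In m235 the sums of 4 lists were the lowest of both groups: plasmacytoid dendritic cells, microglia, oligodendrocytes and the sorted myeloid cells themselves. The part of these cell types in the levels of the members was not tested.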

How the data were processed

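Total RNA of 10 libraries was sequenced as 50-base single-end reads from a strand-marking kit (NEBNext Ultra II Directional). The authors mapped them onto GRCm38 by STAR (2.7.10b in the submitters' processing notes) and deposited whole-number counts per Ensembl gene: alignments on transcripts of the basic release 100 annotation were counted with summarizeOverlaps in Union mode, without secondary alignments, and summed to genes. No source used here says whether strand entered the counting, so reads of overlapping genes may be mixed, and reads shared by near-copies may be lost or split. Every column of counts was used.

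From these counts, edgeR (4.0.16, R 4.3.3) quasi-likelihood tests with TMM library sizes were fitted to the 13740 genes that 3 or more libraries held above 1 CPM, the study's filter, with Benjamini-Hochberg adjustment over all of them. A gene was called at FDR below 0.05 and was past both limits, as the study set them, with an absolute log2 fold change above 1 as well. CPM are scaled by TMM; log2 CPM carry a prior count of 2. Intervals cover 95%. The study's own test was limma-trend, used here with DESeq2 as an alternative. The main fit had no block, as the study names none. The labels give each animal's number to both its libraries, so the numbers pair them: over the 13740 genes the residuals of the same animal correlated at 0.361 to 0.664 and those of different animals at -0.367 to 0.0675. The fit with the animal as replicate block is therefore given where it changes a result. Counts of libraries within a group were further apart than sampling allows (chi-square over its degrees of freedom, 15.6 to 62.9), and each library was 1 sample. Library totals of 8396863 to 35455643 counts leave the least precision in the ARG1− library of m234. Differences within animals are described by size and sign. Exact permutation tests (2-sided, 5 libraries against 5) do not use the pairing and cannot give a p below 0.00794.

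The members and the lists of pathway genes and markers were chosen with earlier results of these data known. Every member is accounted for; values in every library are given for members past both limits, for the GTPases and, in each subgroup, for the member with the most counts and those with the highest and lowest log2 fold change. Of each pathway list the gene with the most counts, the one with the largest absolute fold change and any past both limits are named; further pathway genes named were chosen after their values were seen, and 1 gene counted in these lists is not reported here by name. Exon lengths, overlaps and shared 50-base stretches came from the GENCODE annotation of GRCm38, coordinates of genes from the table, and promoter windows from RefSeq (GRCm38.p6). The fits were tested on simulated data. Alternatives covered the block, tool, library sizes, filter and each library or animal left out.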

Additional observations from a re-analysis of the deposited data

Results flagged for a closer look

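Each member was checked for a library far from the other 4 of its group, and for an animal far from the other 4 in its difference, by the gap to the nearest value over the whole range of the 5 log2 values, set against Dixon's 95% critical value of 0.71; chance alone marks about 1 in 20 such groups. This marked 18 values, and in 17 of them the animal was m235, on the high side, and the gene a type I member. In the ARG1+ library of m235 the ratios were 0.902 for *Cmpk2*, 0.864 for *Ifit3*, 0.86 for *Ifit1*, 0.831 for *Ifit3b*, 0.818 for *Ifit2*, 0.809 for *Zbp1*, 0.777 for *Phf11d*, 0.767 for *Rsad2*, 0.766 for *Eif2ak2*, 0.762 for *Usp18* and 0.727 for *Ifi35*. In the ARG1− library of m235 they were 0.77 for *Cmpk2* and 0.744 for *Ifit2*. The difference within m235 was the least negative or positive one for *Mx2* (0.792), *Ifit2* (0.754), *Mx1* (0.751) and *Ifit3* (0.711). The remaining value was the difference of the GTPase *Gbp5* within m234, at -0.27 against -0.48 in the nearest animal (0.732). Members of a family share reads and libraries, so these are not independent observations, and a cause was not tested.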

How the results depend on the processing

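With the animal as replicate block the lower members rose from 11 to 37 of the 39 type I genes and from 5 to 8 of the 8 GTPases, and the other pathway genes from 41 to 98 lower and from 3 to 8 higher; the block turned no call into the opposite direction. DESeq2 called 17 type I members, and dropping the fold change limit raised the members past both limits from 3 to 16 (0.888% and 6.15% of all genes lower). Of all genes, 6.15% were lower and 6.82% higher without the block, 18.3% and 16.8% with it, and 9.51% and 9.29% with DESeq2. Leaving out a library or an animal gave 1 to 35 type I members, 0 to 7 GTPases, 0 to 10 members past both limits, 22 to 69 other pathway genes lower and 1 to 3 higher. In those fits 2.08% to 6.7% of all genes were lower and 2.64% to 7.63% higher. The median log2 fold change ran from -0.69 to -0.35 for the type I members and from -0.61 to -0.44 for the GTPases. With block and an animal left out, chosen after seeing the data, 3 to 8 members passed both limits. The share of all genes past both limits was not counted in the fits with a library or an animal left out. Uncalled genes near 0 changed sign: *Rsad2* ran from -0.76 to 0.32, *Cmpk2* from -0.65 to 0.29 (0.0012 without the filter), *Nos2* from -0.018 to 0.30, *Socs3* from -0.057 to 0.0013 and *Trim25* from -0.095 to 0.056 (0.0023 without the filter) over the fits with a library or animal left out. No member was called higher in any of these fits. Under limma-trend, other library sizes and other filters, 16 to 21 members were lower, against 2.32% (no filter) to 9.32% (total counts as library sizes) of all genes. The cause of these shifts was not tested. Members with few counts, such as *Ifit1bl1*, and the shallow ARG1− library of m234 limit precision.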

Other observations

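The pathway genes given next lie outside the list and were chosen after their values were seen. The T cell chemokine genes *Cxcl10* and *Cxcl9* were lower in ARG1+ cells, *Cxcl10* at 114 ± 11.96 CPM over ARG1+ libraries against 176 ± 14.7 CPM over ARG1− libraries (mean ± SD, n = 5 libraries each) with a log2 fold change of -0.62 (SE 0.081, FDR 0.00086) and *Cxcl9* at 207 ± 46.7 CPM over ARG1+ libraries against 333 ± 80.9 CPM over ARG1− libraries with -0.69 (SE 0.19, FDR 0.0383) (edgeR's quasi-likelihood test). The membrane gene *Ifitm3*, which blocks virus entry, was at 258 ± 41.2 CPM over ARG1+ libraries against 400.0 ± 39.7 CPM over ARG1− libraries with -0.63 (SE 0.11, FDR 0.00327). The GTPase genes *Tgtp2* and *Gbp4* were at -0.74 (SE 0.18, FDR 0.0207) and -0.61 (SE 0.18, FDR 0.0414). *Ciita*, the master regulator of MHC class II, missed the threshold at -0.56 (SE 0.21, FDR 0.0932) and passed it with the animal as block, at -0.62 (SE 0.087, FDR 0.000527). *Cd274* (PD-L1), also a target of interferon gamma, was not called in either fit, at -0.065 (SE 0.13, FDR 0.775) and -0.071 (SE 0.075, FDR 0.501). Markers of endothelial cells summed to 68.2 to 125 CPM in ARG1+ and 109 to 144.5 CPM in ARG1− libraries. Those of astrocytes summed to 15.9 to 25.8 and 20.9 to 31.0 CPM. Both sums were lower in all 5 animals (1 of 3 and 0 of 4 tested markers lower without the block, 1 of each with it). Most of the endothelial sum was *Flt1* (87.1 and 120.5 CPM on average), the 1 endothelial marker lower, at -0.47 (FDR 0.037). *Pecam1* and *Cdh5* were at -0.014 (FDR 0.983) and -0.11 (FDR 0.887). Oligodendrocyte markers summed to 142 to 175 and 134 to 190.3 CPM and neutrophil markers to 18.2 to 31.0 and 12.8 to 32.2 CPM. Of the 2 neutrophil markers tested, *S100a9* was lower in ARG1+ cells, at 0.242 ± 0.1004 CPM against 2.44 ± 2.53 CPM (mean ± SD, n = 5 libraries each) and -3.40 (SE 0.71, FDR 0.00977). Its groups did not overlap (5.2% of all genes). *S100a8*, which made up most of the sum, was at 0.23 (FDR 0.56) without the block and higher with it (FDR 0.0154).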
